A study of Mus musculus with 9 samples.

Results

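The effect of the XYF decoction under imiquimod was read in mouse ear epidermis as the difference between 3 libraries of IMQ + XYF and 3 libraries of IMQ + H2O. Of 52550 genes in the count table, the 18095 with at least 10 counts in at least 3 of these 6 libraries were taken into the comparison. The mice of both groups were wild-type C57BL/6 animals of 8 weeks, male according to the methods, and both groups received imiquimod cream on the ears for 5 days, so the control group of this comparison carried the imiquimod treatment as well. The groups differed in what was given by gavage over 10 days, starting 5 days before the cream: 200 µl of XYF at 23.3 mg/g or the same volume of double-distilled water. XYF (Xiao-Yin-Fang) is a decoction of 5 herbs, namely Rheum officinale, Sophora flavescens, Salvia miltiorrhiza, Scutellaria baicalensis and Isatis tinctoria, prescribed for psoriasis. A group of 3 libraries that received Vaseline and water (VAS + H2O) is given below for its levels only and took no part in the tests. RNA came from epidermal sheets peeled from the ear, and the methods speak of sheets of 2 mice without saying whether that number is per library. The p-values therefore measure the spread between libraries, part of which may be technical.

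Imiquimod is an agonist of Toll-like receptor 7, and repeated application gives a psoriasis-like dermatitis with thickened epidermis, signaling through IL-23 and IL-17, neutrophil entry and a type I interferon response. The epidermis itself is made of keratinocytes that move from the basal to the cornified layer, together with Langerhans cells, dendritic epidermal T cells and melanocytes. Interstitial collagens are made by dermal fibroblasts, and the ear holds a plate of elastic cartilage below the dermis, whose chondrocytes make collagens II, IX and XI and the proteoglycan aggrecan.

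The 6 libraries held between 30298275 and 64771160 counts on genes, the mitochondrial share lay between 2.56% and 3.67%, and TMM factors lay between 0.974 and 1.03. Levels are given in CPM, the count scaled to the library total and a TMM factor. The floor of 3 counts in a library lay between 0.0463 and 0.0990 CPM and covers counting error only. Keratinocyte markers matched the tissue label, with Krt5 at 8577, 8420.5 and 9426 CPM in IMQ + H2O and 9267, 10172 and 9069 CPM in IMQ + XYF. Cartilage and fibroblast genes were also present in every library, as described below. IMQ + H2O replicate 3 stood apart from its group: the chi-square per gene between replicates was 80.9 and 77.4 for the pairs that held this library and between 25.2 and 39.1 for the other 4 pairs of both groups. Its S100a8, a subunit of the neutrophil and keratinocyte protein calprotectin, was at 103, 138 and 963 CPM across the IMQ + H2O libraries in order of replicate. Results that rest on this library are given with and without it.

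With XYF, 5 genes rose and 0 fell (edgeR's quasi-likelihood test, with p at or under 0.05 after Benjamini-Hochberg adjustment and a change by 1 or more on the log2 scale in either direction). These 5 genes were 0.0276% of the genes tested, and the 0 lower genes were 0%. At an unadjusted p under 0.05, 677 genes (3.74%) were higher and 309 (1.71%) were lower with XYF. In 1073 genes (5.93%) every IMQ + XYF library was above every IMQ + H2O library, and in 862 (4.76%) every one was below. DESeq2, the tool named in the methods, called 124 genes (0.685%) higher and 2 (0.0111%) lower at the same thresholds, all 5 among the higher ones. Of the 126 genes called by DESeq2, 123 had no overlap between the groups, and 32 stood in the lists of cartilage or fibroblast genes described below.

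Of the 5 genes, 3 encode fibrillar or fibril-associated collagens of cartilage. Col11a2 (ENSMUSG00000024330, GRCm38 chromosome 17, 34039437 to 34066685), a chain of collagen XI, was at 5.66, 5.68 and 4.74 CPM in the IMQ + H2O libraries and at 18.6, 18.6 and 19.3 CPM in the IMQ + XYF libraries. It rose 3.51-fold, or by 1.81 ± 0.12 (standard error) on the log2 scale, with an edgeR adjusted p = 0.0114. The IMQ + XYF libraries lay within a narrow band and below the VAS + H2O libraries, which were at 24.2, 64.9 and 33 CPM. Col9a1 (ENSMUSG00000026147, chromosome 1, 24177610 to 24252684), a chain of collagen IX on the surface of cartilage fibrils, was at 2.03, 2.01 and 1.5 CPM with water and 9.31, 8.09 and 9.01 CPM with XYF. It rose by 2.26 on the log2 scale (standard error 0.17, adjusted p = 0.0196 from edgeR), with no overlap between the groups. Col27a1 (ENSMUSG00000045672, chromosome 4, 63214004 to 63334991), a fibrillar collagen of cartilage, was at 25.5, 23 and 21.5 CPM and 71.4, 55.9 and 57.5 CPM in the same order. It rose by 1.40 ± 0.12 (standard error) on the log2 scale, with an edgeR adjusted p = 0.0387, and its VAS + H2O libraries were at 63.3, 146 and 77 CPM. In VAS + H2O, replicate 2 was the highest library for all 3 collagens. In these bulk libraries, more cells of a type and more RNA per cell cannot be told apart.

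The other 2 genes belong to other functions. Rnf13 (ENSMUSG00000036503, chromosome 3, 57736062 to 57835233), which encodes a membrane-bound E3 ubiquitin ligase that interacts with the stress sensor IRE1, was at 35.9, 37.8 and 32.7 CPM with water and 90.6, 82.6 and 82.1 CPM with XYF. It rose 2.4-fold (log2 fold change 1.26, standard error 0.09, adjusted p = 0.0114 from edgeR). The IMQ + XYF libraries were also above the VAS + H2O libraries, which were at 43.4, 40.5 and 45.7 CPM. Tnpo1 (ENSMUSG00000009470, chromosome 13, 98839019 to 98926384), the import receptor transportin 1 that carries RNA-binding proteins into the nucleus, was at 66.8, 73 and 74.2 CPM and 149.7, 144 and 140.5 CPM. It rose 2.03-fold (log2 fold change 1.02, standard error 0.07, adjusted p = 0.0114 from edgeR). Its VAS + H2O libraries were at 67.8, 126 and 58.1 CPM, with replicate 2 near the level of the XYF libraries.

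**Figure D1:**
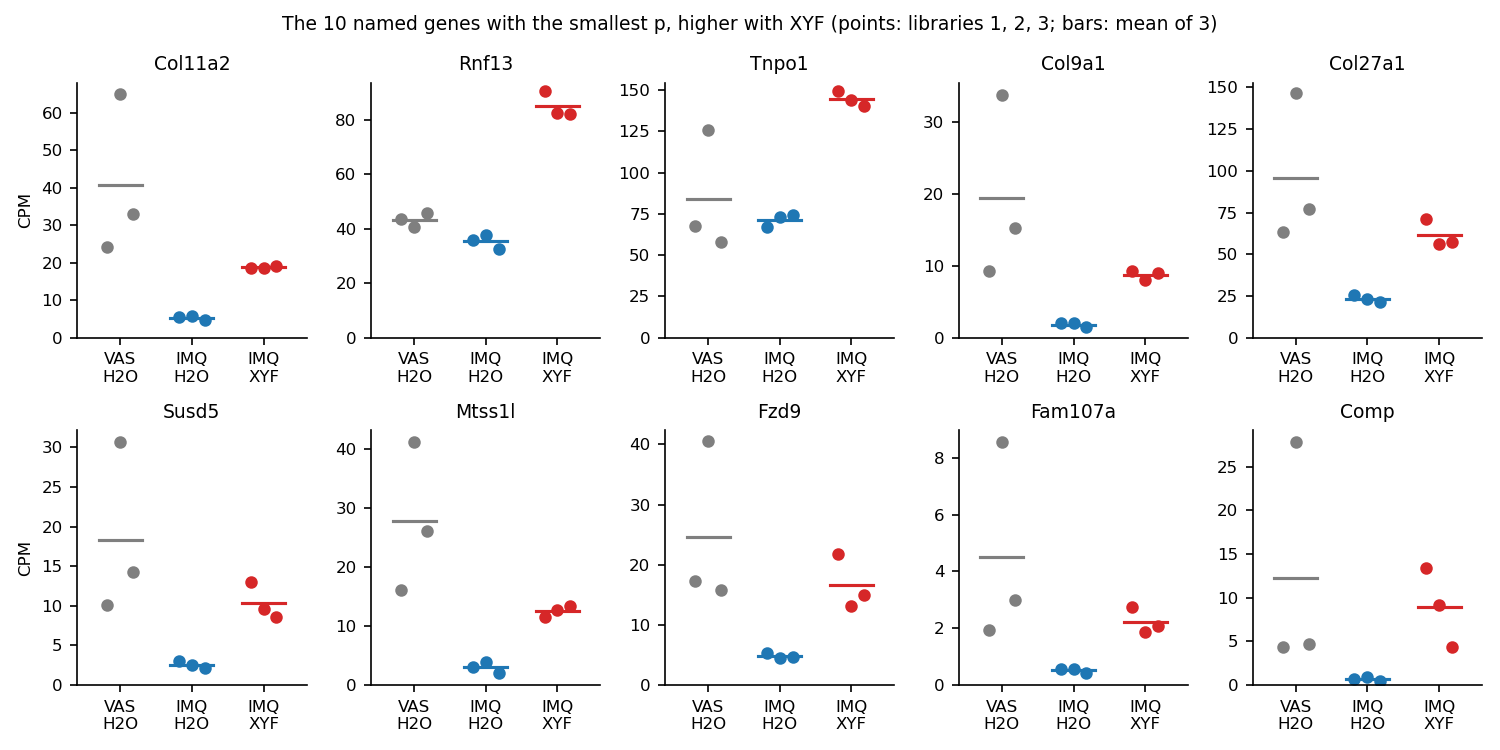
CPM of the 10 genes with the smallest p among those higher with XYF, 1 panel per gene, with each point a library and each bar the mean of 3. In every panel the 3 IMQ + XYF libraries (red) lie above the 3 IMQ + H2O libraries (blue), and in all but Rnf13 the VAS + H2O replicate 2 library (grey) is the highest of its group.

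The 5 next genes of this ranking had log2 fold changes of similar or larger size but adjusted p-values above the threshold. Susd5, a sushi domain gene, was at 3.08, 2.55 and 2.13 CPM with water and 13, 9.54 and 8.59 CPM with XYF (log2 fold change 2.01, standard error 0.22, adjusted p = 0.132 from edgeR). Fzd9, a receptor for Wnt ligands, was at 5.25, 4.51 and 4.58 CPM and 21.8, 13.2 and 14.9 CPM (log2 fold change 1.80, adjusted p = 0.144). Comp, the pentameric cartilage oligomeric matrix protein that binds collagen fibrils, was at 0.644, 0.865 and 0.431 CPM and 13.4, 9.15 and 4.38 CPM (log2 fold change 3.80, standard error 0.48, adjusted p = 0.151). The groups did not overlap for any of the 3, although Comp differed widely among the IMQ + XYF libraries. Mtss1l and Fam107a, regulators of the actin cytoskeleton, had log2 fold changes of 2.05 and 2.10 (adjusted p = 0.144 and 0.151 from edgeR). Pnp2, a purine nucleoside phosphorylase gene named here after its values were seen, was at 0.271, 0 and 0 CPM in IMQ + H2O, 7.78, 7.06 and 6.39 CPM in IMQ + XYF and 0, 0 and 0.113 CPM in VAS + H2O. Its adjusted p was 0.19 from edgeR and 0.0388 from DESeq2. Pnp2 had 8, 0 and 0 counts with water and passed the count filter through the XYF libraries alone, as did 54 of the genes tested, so it was tested only because it was high there. It also has a close paralog, Pnp, and how reads shared by both were counted is not known.

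With edgeR, most calls were lost when a library was left out. Each such fit also has fewer libraries from which to estimate the spread, so it does not show that a single library carried a call. The 5 genes rose again without IMQ + H2O replicate 3 except for Col27a1, and none of them passed the thresholds without any one of the other 5 libraries, when 4 of these fits called 0 genes and the fit without IMQ + H2O replicate 1 called Pnp2. DESeq2 called between 74 and 170 genes with each library left out, 4 or 5 of the 5 among them.

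Cartilage genes, these 3 collagens among them, were read as a list. Of 31 cartilage and chondrocyte genes, 25 passed the count filter, 24 of these had a positive log2 fold change, and 21 were higher at an unadjusted p under 0.05 and 0 lower, against 3.74% and 1.71% of all genes. The median log2 fold change of the list was 1.40, and the median of all genes was -0.01. Only the 3 collagens above rose by edgeR's adjusted p, and DESeq2 called 16. The summed level of the list was 423, 309.8 and 251 CPM in IMQ + H2O, 936, 559.7 and 562 CPM in IMQ + XYF and 948, 1616 and 750.5 CPM in VAS + H2O. This sum gives most weight to members with a high level, such as Cytl1, and does not stand for each member. The 5 list members in the table that did not pass the filter had between 0 and 18 counts in each of the 6 libraries, and Matn1, which encodes matrilin 1, was at 0 in all of them.

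The other structural collagens of cartilage also had positive log2 fold changes. Col2a1, the main fibrillar collagen of cartilage, was at 1.25, 0.407 and 0.272 CPM with water and 7.24, 5.46 and 4.63 CPM with XYF (log2 fold change 3.21, standard error 0.55, adjusted p = 0.344 from edgeR and 2.3e-07 from DESeq2). Col11a1, which forms heterotrimers with Col11a2, was at 7.56, 4.86 and 4.11 CPM and 20.9, 11.4 and 12.8 CPM (log2 fold change 1.45, adjusted p = 0.439). The groups did not overlap for either gene. Col9a2 and Col9a3, the partners of Col9a1 in collagen IX, had log2 fold changes of 1.07 and 1.31 (adjusted p = 0.462 and 0.344). These 4 genes and the other members named in this and the next paragraph, apart from Acan, Cytl1, Itga10 and Gdf5, were named after their values were seen.

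Genes of cartilage proteoglycans and other matrix proteins had positive log2 fold changes, none past edgeR's adjusted threshold. Acan, which encodes aggrecan, was at 64.2, 43.5 and 27 CPM with water and 133, 84.3 and 87.2 CPM with XYF (log2 fold change 1.18, standard error 0.33, adjusted p = 0.617 from edgeR and 0.0176 from DESeq2). Hapln1, the link protein that ties aggrecan to hyaluronan, was at 2.03, 1.53 and 1.84 CPM and 9.11, 4.8 and 5.19 CPM (log2 fold change 1.83, adjusted p = 0.315). Chad, the leucine-rich matrix protein chondroadherin, was at 30.6, 22.5 and 18.9 CPM and 107, 56.5 and 48.7 CPM (log2 fold change 1.56, adjusted p = 0.433). For all 3 genes the lowest IMQ + XYF library was above the highest IMQ + H2O library, and IMQ + XYF replicate 1 was the highest. Cytl1, a secreted protein of chondrocytes, had a smaller gap, with 171, 96.1 and 74.2 CPM and 352, 175 and 172 CPM (log2 fold change 1.03, adjusted p = 0.835). Among the transcription factors that drive chondrocyte genes, Sox5 was at 1.59, 1.53 and 1.04 CPM and 4.88, 4.5 and 3.63 CPM (log2 fold change 1.65, adjusted p = 0.201). Sox9 and Sox6, which are also expressed in skin appendages, had log2 fold changes of 0.33 and -0.14 (95% intervals 0.02 to 0.64 and -0.49 to 0.20). The collagen-binding integrin subunit Itga10 and the joint growth factor Gdf5 had log2 fold changes of 1.17 and 2.30 (adjusted p = 0.549 and 0.582). Across the fits that left out a library, between 17 and 22 of the 25 genes were higher at an unadjusted p under 0.05, and the median of the list lay between 1.18 and 1.76.

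Interstitial collagens and fibroblast genes followed the same pattern. Of 33 genes in the list, 30 passed the filter, with a median log2 fold change of 1.27. At an unadjusted p under 0.05, 24 were higher and 0 lower, against 3.74% and 1.71% of all genes. None passed edgeR's adjusted p, and DESeq2 called 16 genes, all higher. The summed level of the list was 759, 769 and 678 CPM in IMQ + H2O, 1479, 1672 and 1147 CPM in IMQ + XYF and 952, 2651 and 1140.1 CPM in VAS + H2O. This sum, too, gives most weight to members with a high level. Fap, a surface protease of activated fibroblasts, was at 1.15, 0.636 and 0.749 CPM with water and 4.94, 2.81 and 3.68 CPM with XYF (log2 fold change 2.18, standard error 0.32, adjusted p = 0.233 from edgeR and 1.55e-06 from DESeq2). Fstl1, a secreted glycoprotein of mesenchymal cells, was at 3.05, 2.62 and 3.04 CPM and 12.9, 9.15 and 6.19 CPM (log2 fold change 1.70, adjusted p = 0.318). In both genes the groups were apart by more than the spread within IMQ + H2O. The collagen VI chains Col6a1, Col6a2 and Col6a3 had log2 fold changes of 1.54, 1.48 and 1.65 (adjusted p = 0.377, 0.377 and 0.344), and Col6a3 was at 13.2, 8.93 and 7.01 CPM with water and 39.4, 27.1 and 24.1 CPM with XYF.

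The classical dermal collagens differed less from library to library with water than with XYF. Col1a2, a chain of collagen I, was at 10.3, 11 and 9.73 CPM with water and 45.7, 31.3 and 19.2 CPM with XYF (log2 fold change 1.63, adjusted p = 0.366). Its partner Col1a1 was at 4.54, 5.24 and 7.8 CPM and 13.9, 11.5 and 5.3 CPM, where IMQ + XYF replicate 3 overlapped with the water group (log2 fold change 0.80, adjusted p = 0.977). Dcn and Lum, small leucine-rich proteoglycans of the dermis, had log2 fold changes of 1.75 and 2.42 (adjusted p = 0.582 and 0.377). The matricellular genes Sparc and Postn, the matrix glycoprotein gene Fn1 and the intermediate filament gene Vim had log2 fold changes of 1.30, 0.996, 1.41 and 0.68. Thy1, a surface marker of fibroblasts and T cells, was at 122, 114 and 138 CPM and 115, 163 and 123 CPM, and the groups overlapped (log2 fold change 0.10, 95% interval -0.24 to 0.44). Fn1, Lum, Dcn, Vim, Thy1, Col6a2, Col1a1 and Col1a2 were named after their values were seen. Across the fits that left out a library, between 19 and 25 of the 30 fibroblast genes were higher at an unadjusted p under 0.05, and the median lay between 1.05 and 1.51.

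Marker lists of other cells below the epidermis were read beside these. Of 17 skeletal muscle genes, 14 passed the filter, with a median log2 fold change of 2.43. At an unadjusted p under 0.05, 9 were higher, against 3.74% of all genes. The summed level of the list was 9.96, 15.7 and 17.9 CPM in IMQ + H2O, 35.5, 155 and 16.4 CPM in IMQ + XYF and 16.9, 545 and 19.2 CPM in VAS + H2O. IMQ + XYF replicate 2 and VAS + H2O replicate 2 carried most of the muscle RNA, and without IMQ + XYF replicate 2 the median was 0.999 and 1 gene was higher. Myh1, a fast myosin heavy chain, was at 1.64, 34.2 and 0.279 CPM in the IMQ + XYF libraries. The cartilage and fibroblast medians without IMQ + XYF replicate 2 were 1.47 and 1.41, larger than with it. Endothelial genes (11 tested, median -0.05) had 0 members past an unadjusted p under 0.05 in either direction, and smooth muscle, adipocyte, Schwann cell and melanocyte genes had 1 higher member each, with medians of 0.07, 0.20, 0.11 and 0.27. The adipocyte member, Plin1, passed the filter through the XYF libraries alone, and with at least 10 counts in all 6 libraries the adipocyte and melanocyte lists had 0 higher members. The Schwann cell member was S100b, which chondrocytes also express, at 8.27, 6.24 and 4.67 CPM with water and 18.7, 11.1 and 15.6 CPM with XYF (log2 fold change 1.25, adjusted p = 0.433 from edgeR). The 5 red blood cell genes went the other way, with all 5 log2 fold changes negative, a median of -0.90 and 1 gene lower at an unadjusted p under 0.05. Their summed level was 7.73, 7.99 and 24.8 CPM with water and 7.92, 5.86 and 8.81 CPM with XYF, so IMQ + H2O replicate 3 alone was high, and without it the median was -0.10. The share of the differences that came from how much tissue below the epidermis each sheet carried was not tested.

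**Figure D2:**
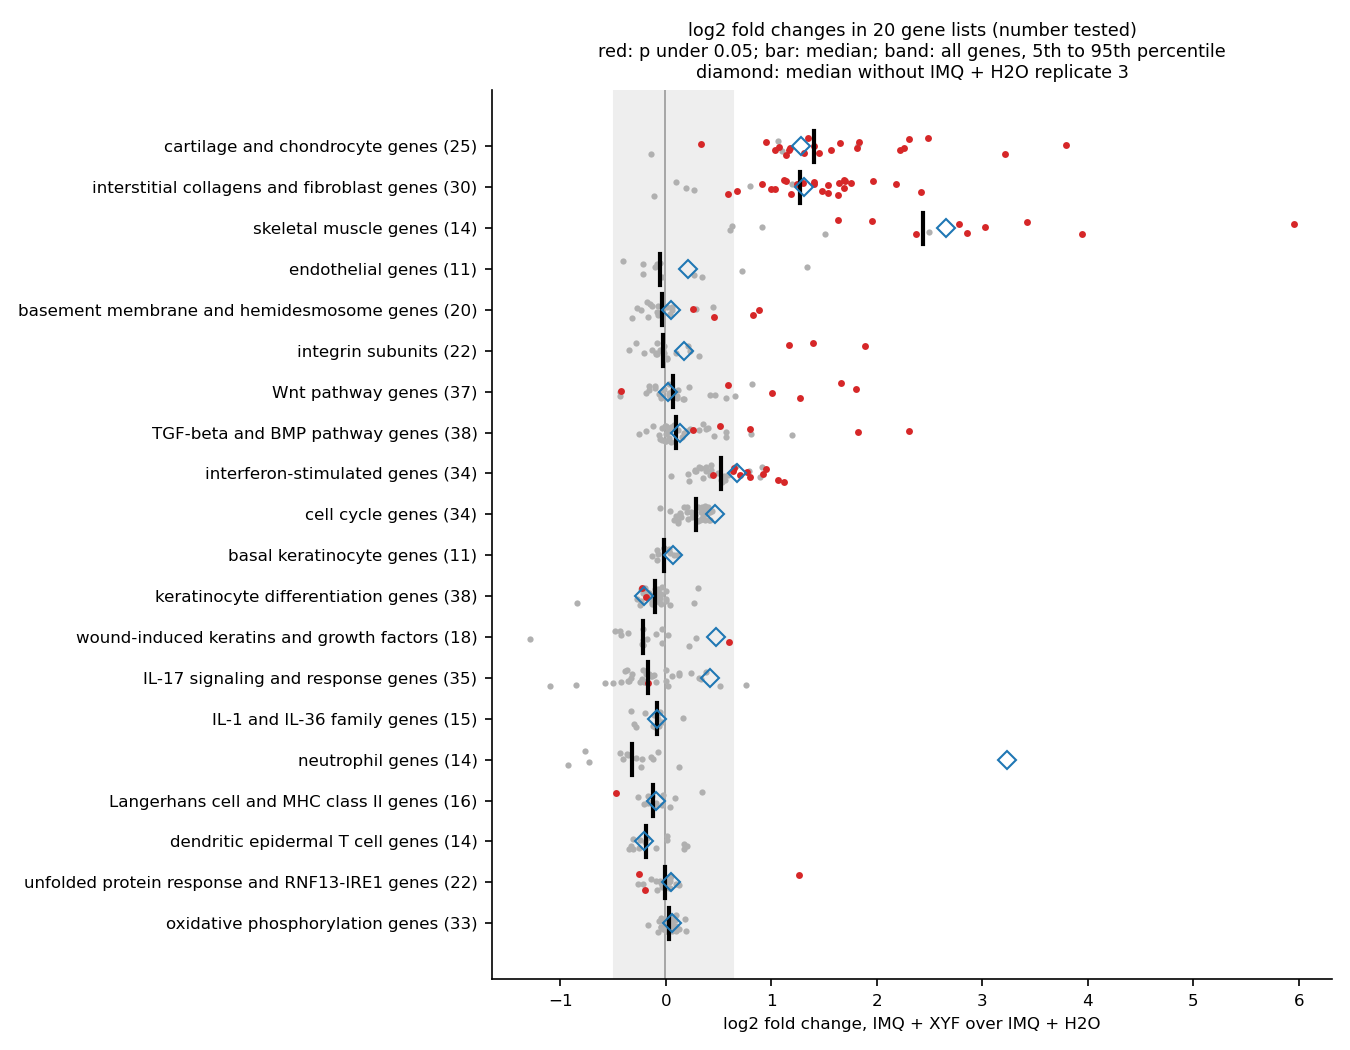
Log2 fold changes of the members of 20 gene lists, with a point per gene, a bar at the median of the list and a diamond at the median without IMQ + H2O replicate 3; the grey band spans the 5th to 95th percentiles of all single genes and is no measure of how list medians vary. The cartilage, fibroblast and muscle lists have medians of 1.40, 1.27 and 2.43, and the diamond of the neutrophil list sits at 3.23. Without IMQ + XYF replicate 1 the neutrophil median, not drawn, was -1.56.

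Genes of the basement membrane, integrins and matrix proteases were mostly close to 0. Of 20 basement membrane and hemidesmosome genes, 4 were higher at an unadjusted p under 0.05, with a median log2 fold change of -0.03. The share of all genes higher at that p was 3.74%. Hspg2, the proteoglycan perlecan of basement membranes and cartilage, was at 70.1, 70.1 and 61.7 CPM with water and 96.8, 89.8 and 89.6 CPM with XYF (log2 fold change 0.45, adjusted p = 0.36). Col4a2 of collagen IV and Nid2, a nidogen, had log2 fold changes of 0.82 and 0.89 (adjusted p = 0.422 and 0.497). Col17a1, the hemidesmosomal collagen of basal keratinocytes, had a log2 fold change of -0.08 with a 95% interval of -0.39 to 0.24. Of 22 integrin subunits, 3 were higher, namely Itga1, Itga9 and Itga10, and among 24 matrix proteases and inhibitors 4 were. Itga1, a collagen receptor subunit, was at 1.05, 1.63 and 1.04 CPM and 6.9, 3.41 and 3.49 CPM (log2 fold change 1.89, adjusted p = 0.377). The metalloproteinase inhibitors Timp2 and Timp3 had log2 fold changes of 0.89 and 0.56 (adjusted p = 0.507 and 0.617).

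**Figure D3:**
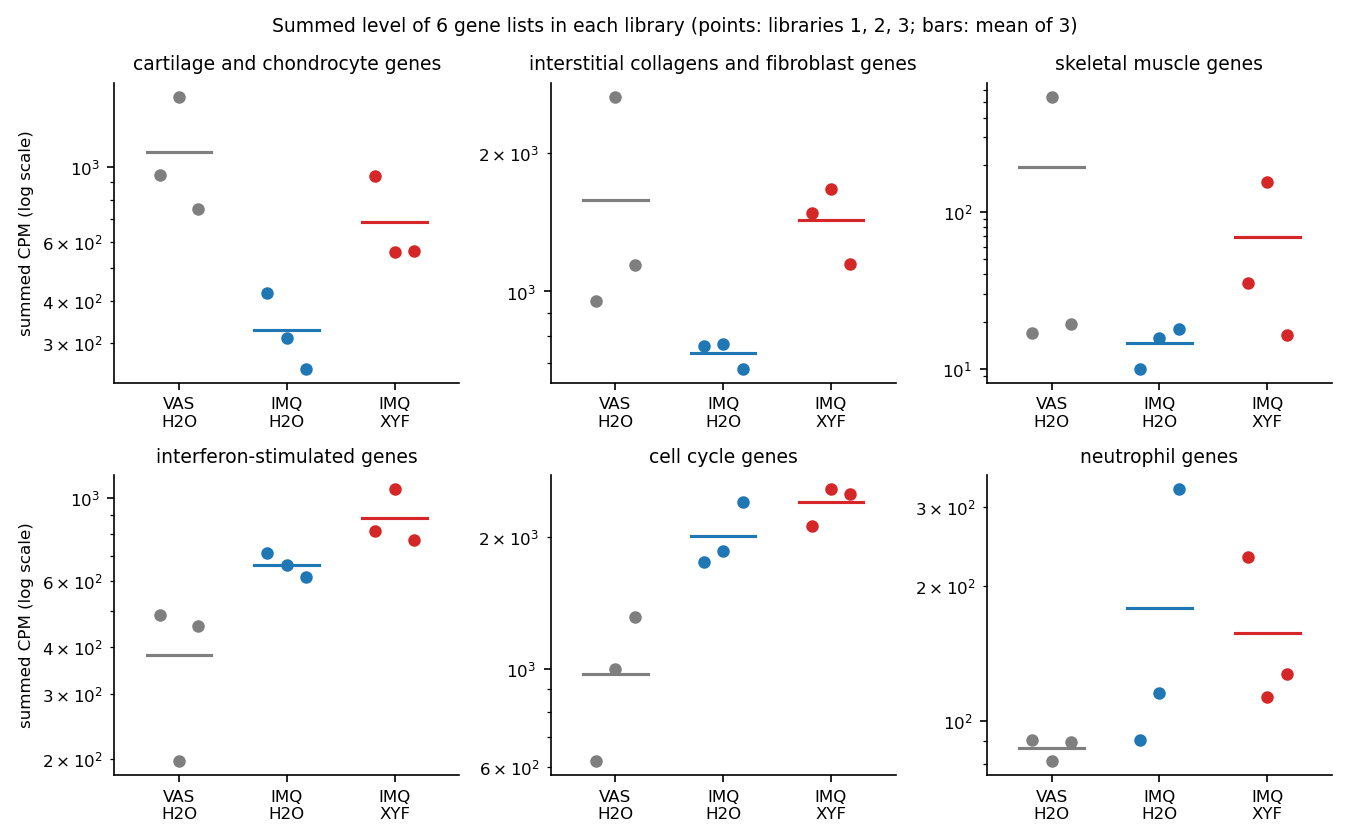
Summed CPM of 6 gene lists in each library on a log axis, with a point per library and a bar at the mean of 3. The cartilage and fibroblast lists have no overlap between IMQ + H2O and IMQ + XYF, the muscle list is highest in VAS + H2O replicate 2 and IMQ + XYF replicate 2, and the neutrophil list is highest in IMQ + H2O replicate 3.

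In the signaling lists a few members differed while the medians stayed near 0. The counts of these lists stand beside 3.74% of all genes higher and 1.71% lower at an unadjusted p under 0.05. Of 25 genes of the Hippo pathway, in which YAP binds TEAD factors to switch on growth genes, 4 were higher at an unadjusted p under 0.05 and 0 lower, with a median of 0.02. Tead1, the DNA-binding partner of YAP, was at 8.57, 13.9 and 6.56 CPM with water, 26, 71.8 and 63.8 CPM with XYF and 7.32, 63.2 and 6.69 CPM in VAS + H2O (log2 fold change 2.47, standard error 0.44, adjusted p = 0.366 from edgeR and 1e-07 from DESeq2). The IMQ + XYF libraries and VAS + H2O replicate 2 were high and the other 5 libraries low. The YAP target Ctgf was at 92.6, 53.7 and 49.6 CPM and 325, 139 and 122 CPM (log2 fold change 1.58, adjusted p = 0.594), and the atypical cadherin Fat4 had a log2 fold change of 1.97 (adjusted p = 0.549).

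Of 37 Wnt pathway genes, with a median of 0.07, 5 were higher and 1 lower at an unadjusted p under 0.05. The shares of all genes were 3.74% and 1.71%. Wif1, a secreted inhibitor that binds Wnt ligands, was at 48, 33.5 and 25.7 CPM with water and 152, 83.2 and 103 CPM with XYF (log2 fold change 1.66, adjusted p = 0.364 from edgeR and 1.82e-06 from DESeq2). The intracellular inhibitor Nkd1 and the receptor Fzd9 were the other members with the smallest p, with log2 fold changes of 1.27 and 1.80. Of 38 TGF-beta and BMP genes, 5 were higher and 0 lower, with a median of 0.10. The ligand Bmp5, which acts in ear cartilage development, was at 4.68, 2.65 and 2.34 CPM and 14.4, 12 and 7.42 CPM (log2 fold change 1.82, adjusted p = 0.377). The ligand Tgfb2 had a smaller difference with little spread, 4.78, 4.61 and 4.33 CPM and 6.64, 6.19 and 6.72 CPM (log2 fold change 0.51, adjusted p = 0.512).

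Calcium, cGMP-PKG and PI3K-Akt genes gave counts of the same order. Of all genes tested, 3.74% were higher and 1.71% lower at an unadjusted p under 0.05. Of 40 calcium signaling genes, 6 were higher and 0 lower, among them the calcium release channel Itpr1 (3.22, 2.7 and 3.04 CPM with water, 7.58, 4.98 and 5.22 CPM with XYF) and the phospholipases Plce1 and Plcb1, with log2 fold changes of 0.99, 1.31 and 1.14. Of 26 cGMP-PKG genes, 3 were higher: the kinase gene Prkg1, the natriuretic peptide receptor gene Npr2 and the transcription factor gene Mef2c, with log2 fold changes of 2.53, 0.88 and 1.62. Prkg1 had 9, 5 and 5 counts with water and passed the filter through the XYF libraries alone, and with at least 10 counts in all 6 libraries 2 genes were higher. For Mef2c, IMQ + XYF replicate 2 was at the highest of 1.06, 5.4 and 1.2 CPM, the library with the most muscle RNA of the 6. Of 43 PI3K-Akt genes, 5 were higher. Igf1, a growth factor ligand of this pathway, was at 0.678, 0.789 and 0.839 CPM and 5.8, 3.38 and 2.15 CPM (log2 fold change 2.29, adjusted p = 0.344 from edgeR and 4.19e-05 from DESeq2). The keratinocyte growth factor Fgf7, made by fibroblasts, and the insulin receptor substrate Irs1 had log2 fold changes of 1.35 and 0.55 (adjusted p = 0.681 and 0.507). The kinase gene Akt1 of the core pathway did not pass an unadjusted p under 0.05.

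The 21 genes that the study listed as changed in both of its epidermal comparisons were chosen on these libraries, so their direction here is not independent evidence. Each of them also stands in the cartilage, fibroblast, integrin or signaling lists above. The counts of higher genes in those lists therefore partly repeat this choice. All 21 passed the filter, all were higher in every IMQ + XYF library than in every IMQ + H2O library, and their median log2 fold change was 1.66. Their summed level was 168, 129 and 103 CPM with water, 552, 359.7 and 331 CPM with XYF and 501, 1277 and 502 CPM in VAS + H2O. Of the 21, Col9a1 rose by edgeR's adjusted p, and DESeq2 called all 21.

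Interferon-stimulated genes had small positive log2 fold changes with XYF. Type I interferon switches on a set of antiviral genes, many of which carry a response element made of repeated GAAA units. Of 35 such genes, 34 passed the filter and all 34 had a positive log2 fold change. At an unadjusted p under 0.05, 10 were higher and 0 lower, against 3.74% and 1.71% of all genes. In 10, every IMQ + XYF library was above every IMQ + H2O library, against 5.93% of all genes. The median of the list was 0.53. None passed edgeR's adjusted p, and DESeq2 called 1, Ifit1. The summed level of the list was 712, 661 and 617 CPM in IMQ + H2O, 819, 1059.8 and 771 CPM in IMQ + XYF and 487, 197 and 456 CPM in VAS + H2O. IMQ + XYF replicate 2 was the highest, and without it 5 genes were higher at an unadjusted p under 0.05, with a median of 0.47. Without IMQ + XYF replicate 1, 29 of the 34 had a positive log2 fold change, and in a fit of all 9 libraries 1 gene was higher at that p.

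The stretches of promoter below show the interferon response motif in the 5 list members with the smallest p that hold it. The motif, GAAA, any 2 bases and GAAA again, was searched on both strands in the 250 bases before each RefSeq gene start on GRCm38.p6, and letters that belong to a match are in capitals, so a match on the other strand reads as TTTC, any 2 bases and TTTC. Each stretch is written 5′ to 3′ on the strand of the gene.
Ifit1 (chr19:34640750-34640848, plus strand, 139 to 41 bases before the start): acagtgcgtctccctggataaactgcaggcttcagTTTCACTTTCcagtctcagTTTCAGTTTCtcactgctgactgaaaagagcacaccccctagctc
Ddx60 (chr8:61927999-61928086, plus strand, 88 to 1 bases before the start): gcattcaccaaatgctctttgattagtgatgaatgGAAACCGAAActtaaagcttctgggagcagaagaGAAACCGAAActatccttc
Isg15 (chr4:156200840-156200931, minus strand, 113 to 22 bases before the start): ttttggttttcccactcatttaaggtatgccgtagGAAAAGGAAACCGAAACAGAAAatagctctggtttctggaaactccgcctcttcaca
Bst2 (chr8:71537552-71537637, minus strand, 165 to 80 bases before the start): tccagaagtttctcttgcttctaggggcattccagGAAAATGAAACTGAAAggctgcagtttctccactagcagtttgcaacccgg
Rsad2 (chr12:26456528-26456607, minus strand, 155 to 76 bases before the start): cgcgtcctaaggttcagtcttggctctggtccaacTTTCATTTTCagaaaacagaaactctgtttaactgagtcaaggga

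The motif stood in 2.98% of all 32851 promoters of that length in the table and in 374 (3.23%) of the 11588 tested genes that have a promoter in it. Of the 24 interferon-stimulated genes among these, 13 (54.2%) held it. In Isg15 and Bst2 the matches overlap and form a run of units, and Ifit1 and Ddx60 hold separate matches. The median log2 fold change was 0.70 for the 13 genes with the motif, 6 of them higher at an unadjusted p under 0.05, and 0.38 for the 11 without it, 2 of them higher. Outside the list, the 361 genes with the motif had a median of 0.01, with 21 higher and 7 lower at an unadjusted p under 0.05. The 11203 without it had a median of -0.004, with 454 higher and 183 lower. Among the promoters of 18 cartilage genes and 18 fibroblast genes, 0 and 1 held the motif. A match of letters describes the sequence and is not evidence of binding.

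Ifit1, which binds foreign RNA, was at 11.9, 10.003 and 10.8 CPM with water, 22.6, 28.6 and 17 CPM with XYF and 6.9, 0.826 and 2.5 CPM in VAS + H2O (log2 fold change 1.06, standard error 0.20, adjusted p = 0.372 from edgeR and 0.000237 from DESeq2). Isg15, a ubiquitin-like modifier, was at 30.1, 28.8 and 22.3 CPM and 39.2, 71.4 and 42.9 CPM (log2 fold change 0.92, adjusted p = 0.582 from edgeR). Ddx60, an RNA helicase, was at 5.8, 6.16 and 4.29 CPM and 8.997, 11.7 and 7.64 CPM (log2 fold change 0.80, adjusted p = 0.582). In all 3 genes IMQ + XYF replicate 2 was the highest library and the groups did not overlap. Bst2, the virus-tethering protein tetherin, and Rsad2, the antiviral enzyme viperin, had log2 fold changes of 0.70 and 0.95 (95% intervals 0.22 to 1.18 and 0.26 to 1.65) and were named after their values were seen.

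**Figure D4:**
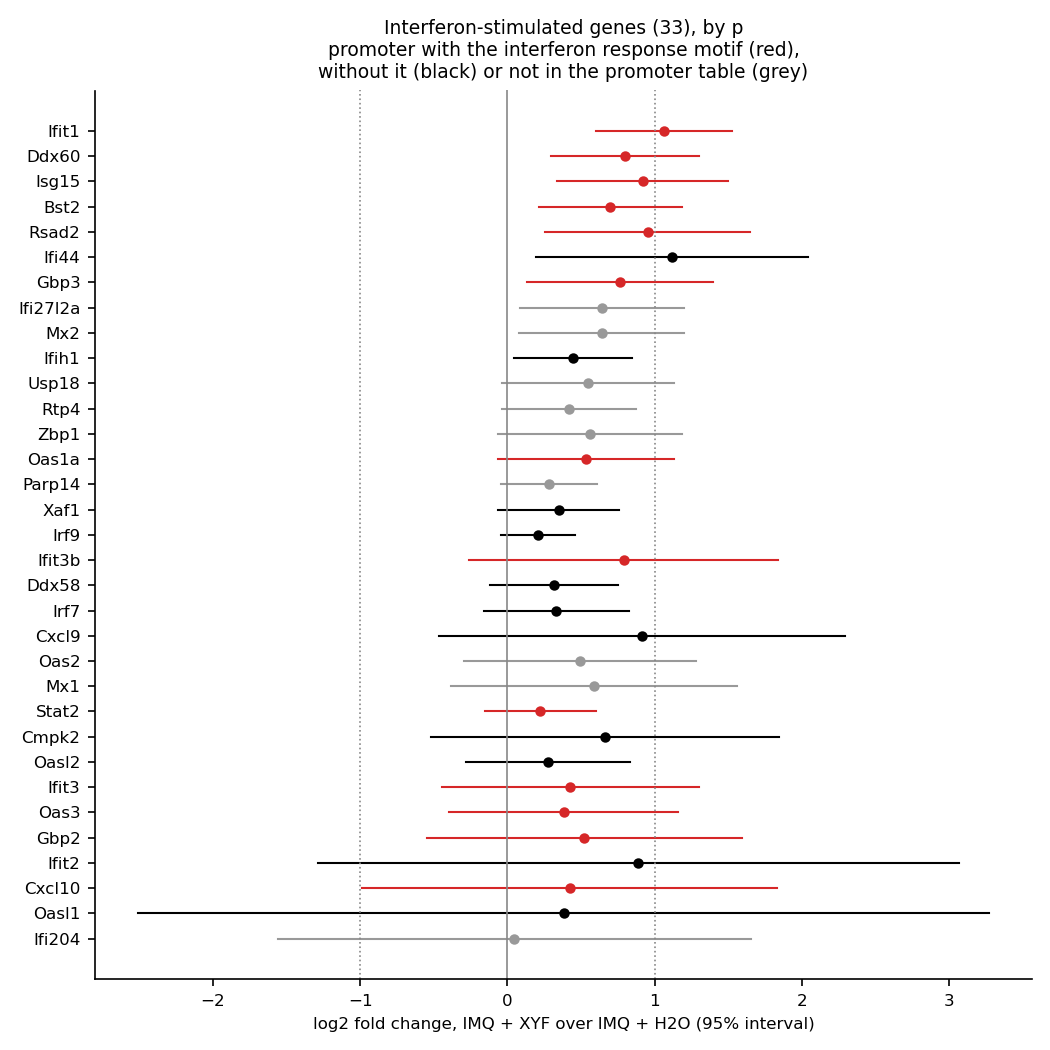
Log2 fold changes of 33 of the 34 interferon-stimulated genes with 95% intervals, ordered by p, with colors for promoters that hold the response motif (red), lack it (black) or are not in the promoter table (grey). All 33 points lie above 0, and 10 intervals do not reach 0.

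The usual readouts of imiquimod inflammation did not pass the test, and several had wide intervals. S100a8 was at 103, 138 and 963 CPM with water and 285, 402 and 236 CPM with XYF, so the IMQ + XYF libraries lay between IMQ + H2O replicate 3 and the other two water libraries. Its log2 fold change was -0.39 (95% interval -2.31 to 1.54) with all 6 libraries and 1.35 without IMQ + H2O replicate 3. S100a9, its partner in calprotectin, had -0.32 (95% interval -2.15 to 1.51) and 1.30 in the same order. Neither value passed the adjusted threshold, and the direction turned with 1 library. Ccl20, the chemokine that attracts CCR6-bearing cells, was at 126, 91.4 and 128 CPM and 179, 149.7 and 118 CPM (log2 fold change 0.38, 95% interval -0.06 to 0.82). Cebpb, a transcription factor induced by IL-17, was at 124, 116 and 118 CPM and 108, 109 and 103 CPM, lower in every XYF library (log2 fold change -0.16, 95% interval -0.31 to -0.02, adjusted p = 0.841). Over 35 IL-17 signaling and response genes the median was -0.16. At an unadjusted p under 0.05, 0 were higher and 1 lower, against 3.74% and 1.71% of all genes. Without IMQ + H2O replicate 3 the median was 0.42 with 8 higher, in a fit where 5.8% of all genes were higher and 4.26% lower at that p. Il17a had 0 counts in each of the 9 libraries, and Tlr7, the receptor of imiquimod, had 5, 9 and 15 counts with water and 0 in each XYF library, both below the filter.

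The summed level of neutrophil genes was, like S100a8, highest in IMQ + H2O replicate 3, whereas among the XYF libraries S100a8 was highest in replicate 2 and the neutrophil sum in replicate 1. Retnlg, a granule gene of neutrophils, was at 0, 0.382 and 15 CPM with water and 5.62, 0.242 and 2.15 CPM with XYF, and Fpr2, a formyl peptide receptor, was at 0.203, 0.255 and 5.08 CPM and 2.31, 0.181 and 0.697 CPM. In both, IMQ + H2O replicate 3 and IMQ + XYF replicate 1 were the highest of their groups. The summed level of 18 neutrophil genes was 90.7, 115 and 329 CPM and 231, 113 and 127 CPM. The median log2 fold change of the 14 tested was -0.32 with all libraries and 3.23 without IMQ + H2O replicate 3. In that fit 6 were higher at an unadjusted p under 0.05, against 5.8% of all genes. Without IMQ + XYF replicate 1 the median was -1.56, with 0 higher and 0 lower at that p. Only 5 of the 14 had at least 10 counts in all 6 libraries, with a median of -0.125. The 95% interval of a neutrophil gene spanned a median of 3.57 on the log2 scale to each side, so differences within that width were not detectable at this spread. Mast cell genes summed to 5.32, 8.27 and 70.4 CPM with water and 45.2, 6.52 and 17.9 CPM with XYF, with the same 2 libraries highest.

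Keratinocyte genes had medians near 0. The median log2 fold change was -0.02 over 11 basal keratinocyte genes, with 0 past an unadjusted p under 0.05 in either direction and every 95% interval within 1 of 0. Over 38 differentiation genes the median was -0.10, and 34 had a negative log2 fold change. In 3 of the 38, every XYF library was below every water library, against 4.76% of all genes. At that p, 2 were lower and 0 higher, against 1.71% and 3.74% of all genes. The 2 were Grhl3, a transcription factor of barrier formation (246, 254 and 247 CPM with water, 215, 195 and 229.8 CPM with XYF, log2 fold change -0.22), and the crosslinking enzyme Tgm1 (381, 333 and 369 CPM and 311, 334 and 304 CPM, log2 fold change -0.19). The differences were small beside those of the matrix genes. Without IMQ + H2O replicate 3 the median was -0.21. In that fit 16 of the 38 were lower at that p, against 4.26% of all genes. Krt10, the keratin of suprabasal cells, and Flg, which encodes filaggrin, had log2 fold changes of -0.14 and -0.84 (95% intervals -0.57 to 0.29 and -2.23 to 0.55). Flg had 29372, 20637 and 6893 counts with water and 17156, 13687 and 9299 counts with XYF. Scaled to library totals, it was lowest in IMQ + H2O replicate 3 and higher in both other water libraries than in every XYF library. The overlap of the groups for Flg thus rested on this replicate.

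The wound keratins, which are induced in psoriatic epidermis, depended on the same library. Krt16 was at 2071, 1939 and 3938 CPM with water and 2497, 1925 and 2413 CPM with XYF (log2 fold change -0.22, 95% interval -0.88 to 0.45). Krt6a and Krt17 had log2 fold changes of -0.22 and -0.04 (95% intervals -1.61 to 1.17 and -0.95 to 0.87). Without IMQ + H2O replicate 3 the values were 0.18 for Krt16, 0.61 for Krt6a and 0.50 for Krt17. The growth factor Btc, a ligand of the EGF receptor, was at 4.58, 4.63 and 2.74 CPM and 5.54, 6.31 and 6.28 CPM, with no overlap (log2 fold change 0.60, adjusted p = 0.832). Another such ligand, Tgfa, was at 68.9, 20.2 and 13.6 CPM and 10.4, 21 and 10.7 CPM (log2 fold change -1.28, adjusted p = 0.98), where IMQ + H2O replicate 1 was far above the rest.

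Of 34 cell cycle genes, 33 had a positive log2 fold change, with a median of 0.29, and 0 passed an unadjusted p under 0.05 with edgeR, against 5 with DESeq2. Mki67, the marker of dividing cells, was at 295, 328 and 380.4 CPM with water, 343, 486 and 442 CPM with XYF and 85.2, 213 and 248 CPM in VAS + H2O (log2 fold change 0.34, 95% interval -0.02 to 0.70). Bub1b, a kinase of the spindle checkpoint, was at 31.1, 35.7 and 42.3 CPM and 39.7, 55.4 and 46.6 CPM (log2 fold change 0.37, 95% interval -0.00 to 0.75). The groups overlapped for both genes, through IMQ + H2O replicate 3 and IMQ + XYF replicate 1. Without IMQ + H2O replicate 3 the median was 0.47. In that fit 28 of the 34 were higher at an unadjusted p under 0.05, against 5.8% of all genes. Without IMQ + XYF replicate 1, 8 of the 34 were higher at that p.

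Immune cells of the epidermis showed few differences. Cd207, the langerin of Langerhans cells, was at 20.8, 28.4 and 23.4 CPM with water and 23.4, 22 and 21 CPM with XYF (log2 fold change -0.13, 95% interval -0.44 to 0.18). Cd86, a costimulatory molecule of antigen-presenting cells, was at 6.81, 7.05 and 9.41 CPM and 5.73, 5.92 and 5.13 CPM, lower in every XYF library (log2 fold change -0.47, 95% interval -0.87 to -0.08, adjusted p = 0.802). It was the single member of 16 Langerhans cell and MHC class II genes at an unadjusted p under 0.05, and without IMQ + H2O replicate 1 the list had 5 lower members. The T cell genes Cd3e and Trdc, which encode a CD3 chain and the delta receptor constant region, had log2 fold changes of 0.01 and -0.20 (95% intervals -0.40 to 0.43 and -0.65 to 0.26). In the list of γδT17 and T cell genes, 2 of 16 were lower and 0 higher at an unadjusted p under 0.05. The shares of all genes were 1.71% and 3.74%. Cd4 was near the floor, at 0.373, 0.433 and 0.318 CPM with water and 0.0463, 0 and 0.0837 CPM with XYF, or 11, 17 and 14 counts and 3, 0 and 3 counts. It was one of the 2 lower genes and passed the filter through the water libraries alone, and with at least 10 counts in all 6 libraries 1 was lower. Zbtb16, the factor PLZF of innate-like T cells that also responds to glucocorticoids, was at 39.96, 40.1 and 34.3 CPM and 31.2, 13.3 and 9.9 CPM (log2 fold change -1.06, adjusted p = 0.832).

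**Figure D5:**
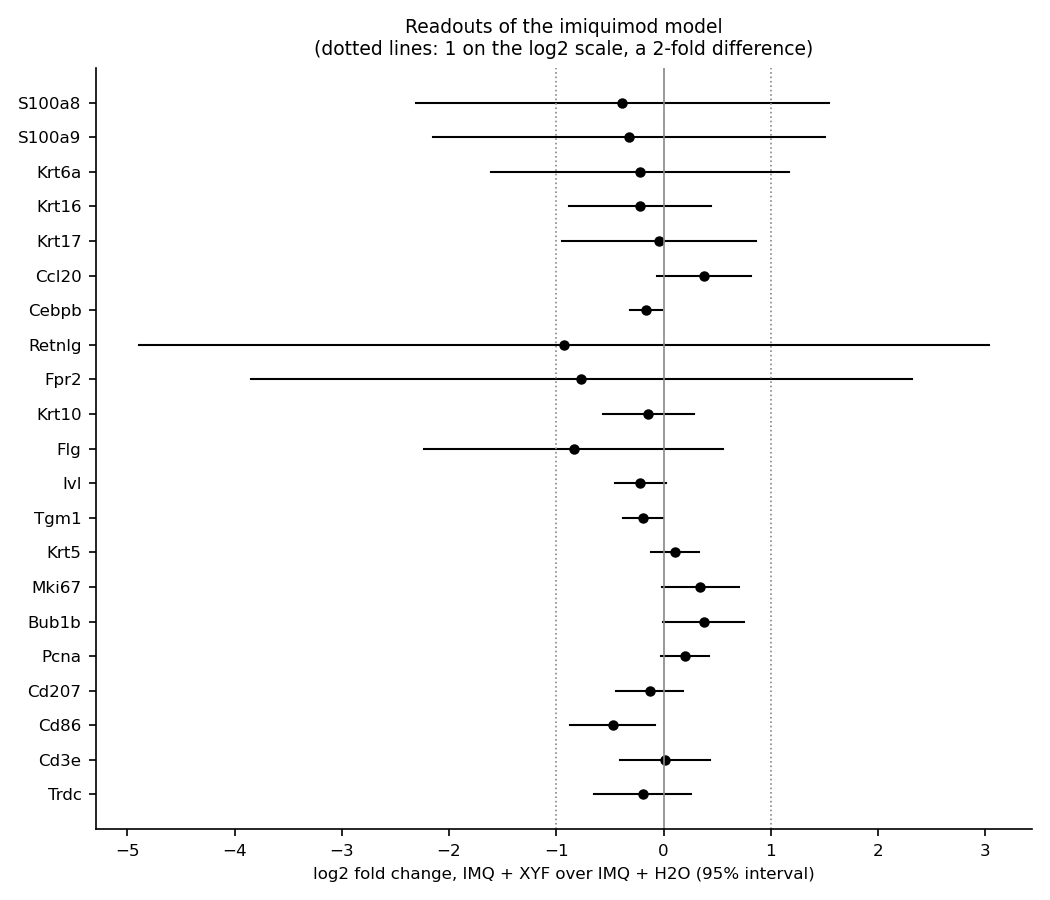
Log2 fold changes of 21 readout genes of the imiquimod model with 95% intervals and dotted lines at a difference of 1 to each side. The intervals of S100a8, S100a9, Krt6a, Flg, Retnlg and Fpr2 reach past the dotted lines, and those of Krt5, Krt10, Mki67, Cd207, Cd3e and Trdc lie within them.

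The lists around Rnf13 and Tnpo1 held no further gene past the adjusted threshold. Counts in this paragraph stand beside 3.74% of all genes higher and 1.71% lower at an unadjusted p under 0.05. Of 22 genes of the unfolded protein response, Rnf13 was higher and 2 were lower at an unadjusted p under 0.05. The lower ones were Ern1, which encodes IRE1 itself (65.6, 63.3 and 76.5 CPM with water, 52.7, 56.4 and 63.2 CPM with XYF, log2 fold change -0.25), and Herpud1, a gene of protein degradation at the endoplasmic reticulum (log2 fold change -0.19). Of 28 nuclear transport genes, Tnpo1 and Rangap1, the activating protein of the Ran GTPase, were higher and 0 lower, and the median was 0.04. Rangap1 was at 149, 143 and 161 CPM and 183, 170.4 and 197 CPM (log2 fold change 0.28, adjusted p = 0.657). Of 27 cholesterol and fatty acid synthesis genes, 1 was higher at an unadjusted p under 0.05, Fdft1, the squalene synthase, at 149, 176 and 138 CPM and 209, 226 and 194 CPM (log2 fold change 0.44, adjusted p = 0.528). Of 27 genes of the arachidonic acid pathway, 2 were higher, the phospholipase gene Pla2g5 and the prostacyclin synthase gene Ptgis, with log2 fold changes of 0.89 and 1.33 (adjusted p = 0.814 and 0.541). The 1 lower gene was Hpgd, which breaks down prostaglandins, at 45.7, 43.8 and 41.4 CPM and 37.9, 34.4 and 35.3 CPM (log2 fold change -0.28, adjusted p = 0.642). Summed over this list, the level was 3162, 3176 and 3058 CPM with water and 2941, 3025 and 2826 CPM with XYF, lower in every XYF library. The sum gives most weight to the genes with the highest level and does not stand for each member. Over the 27 genes the median log2 fold change was -0.09 and 10 were positive. Without overlap 2 were higher and 1 lower, against 5.93% and 4.76% of all genes. The list shares Alox12b and Aloxe3 with the keratinocyte differentiation genes.

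Among the lower genes none passed edgeR's adjusted threshold. Rchy1, a ubiquitin ligase that targets p53, was at 20.9, 22.6 and 22.4 CPM with water and 12.9, 13.1 and 13.8 CPM with XYF (log2 fold change -0.73, standard error 0.09, adjusted p = 0.151 from edgeR and 7.74e-08 from DESeq2). Mrpl32, a protein of the mitochondrial ribosome, was at 25.4, 23.5 and 25.7 CPM and 16.2, 14.6 and 14.1 CPM (log2 fold change -0.73, adjusted p = 0.19 from edgeR). For both genes the groups were far apart beside their spread. Dancr, a noncoding RNA that hosts small nucleolar RNAs, was at 5.76, 5.88 and 1.47 CPM with water, 0.0463, 0.0604 and 0.167 CPM with XYF and 0.231, 2.85 and 0.0567 CPM in VAS + H2O (adjusted p = 0.179 from edgeR). IMQ + H2O replicate 3 was nearest to the XYF libraries, and without it Dancr passed edgeR's thresholds. With XYF this row had 3, 2 and 6 counts, so it passed the filter through the water libraries alone, as did 16 of the genes tested. Another row of the table with the symbol Dancr had a log2 fold change of 0.02. Hnrnpc, Capn15, Aes, Slc25a37, Hyal1, Zfp513 and Grip1 completed the 10 named lower genes, with log2 fold changes between -0.58 and -0.31 and adjusted p-values between 0.422 and 0.462. Hnrnpc, an RNA-binding protein of pre-mRNA, was the one with the smallest p of these, at 144, 132 and 171 CPM and 101, 109 and 104 CPM.

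The precision differed with the level of a gene. The median standard error over all 18095 genes was 0.17 on the log2 scale, and for 72.3% of the genes the 95% interval lay within 1 of 0, so that a change larger than 2-fold in either direction was outside the interval. This share was 13.5% of the 3539 genes under 1 CPM, 70.2% of the 4950 genes from 1 to 10 CPM, 94.3% of the 7531 genes from 10 to 100 CPM and 97.4% of the 2075 genes at 100 CPM or more. Of the cartilage genes 2, and of the cell cycle genes 33 of 34, had their interval within these bounds.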

How the data were processed

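RNA was sequenced from epidermal sheets of mouse ears in 9 libraries that their labels place in 3 groups of 3 (IMQ + XYF, IMQ + H2O and VAS + H2O). The authors deposited whole-number counts per gene without normalization. The submitters' processing notes name FastQC, STAR 2.5, Cuffnorm, DESeq 1.22.1 and GRCm38, and the methods name STAR, an Ensembl annotation, StringTie and DESeq2. The counting tool and its strand setting are not given in the sources used here, so reads of overlapping or antisense genes and of near-identical copies could not be told apart. The methods give gavage once per day, while figure legends give a higher frequency.

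Genes with at least 10 counts in at least 3 of the 6 libraries compared were kept, and counts were scaled by TMM to CPM. IMQ + XYF was tested against IMQ + H2O with edgeR 4.0.16 (R 4.3.3, estimateDisp, glmQLFit, glmQLFTest) and Benjamini-Hochberg adjustment over the 18095 genes. A call needed p at or under 0.05 after adjustment together with a change by 1 or more on the log2 scale in either direction. The test was tried on simulated counts drawn independently for each gene, with a spread set by the level of the gene. That simulation held no library apart from its group, so it does not show how the test behaves on these libraries. The smallest p that exact two-sided permutation of 3 and 3 libraries allows is 0.1, so no such test was used. DESeq2 1.42.0, limma 3.58.1 and other settings were alternatives. Gene positions are from GENCODE M21 (GRCm38), matched for 18069 genes, and promoters from RefSeq (GRCm38.p6), matched for 11588.

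Named genes were the calls, the 10 genes with the smallest p in each direction among those without overlap, a mean of at least 1 CPM and a symbol that is no predicted model, from each list the 3 members with the smallest p and the 2 with the highest level, and usual readouts of the model. This gave 238 genes, and the text names part of them. Members of the comparison and the gene lists were chosen with earlier results of these data known, so lists are described by counts and medians, with no test of the list. A few genes are not reported here by name but stay in the counts and sums of their lists.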

Additional observations from a re-analysis of the deposited data

How the results depend on the processing

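The number of genes passing both thresholds, 5, was 5 with RLE size factors, with no low-count filter, with filterByExpr and with at least 10 counts in all 6 libraries, 4 with limma-voom and 6 with the newer quasi-likelihood method, a fit chosen after seeing the data. It was 126 with DESeq2 (124 higher, 2 lower), 1 (Rnf13) with all 9 libraries in the fit and 0 with glmTreat, which tests against a log2 fold change of 1. With a library left out it ranged from 0 to 5, and with DESeq2 under the same omissions, chosen after seeing the data, it was 145, 103 and 122 without IMQ + H2O replicates 1, 2 and 3 and 74, 93 and 170 without IMQ + XYF replicates 1, 2 and 3. On the adjusted p alone the count was 5, with 163 for DESeq2, 1 with all 9 libraries and 0 to 5 with a library left out. The count at an unadjusted p under 0.05 was 986, ranged from 757 to 1820 with a library left out, the highest without IMQ + H2O replicate 3, and lay between 831 and 1270 otherwise. Genes without overlap numbered 1935 (1073 higher, 862 lower), 1916 (1275 higher, 641 lower) with scaling to library totals, and 3250 to 5257 with a library left out, where smaller groups overlap less often. Genes with an interval within 1 of 0 numbered 13080 and 12085 to 13346 otherwise.

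With the replicate number as a block, 0 genes passed, also on the adjusted p alone, and 987 had an unadjusted p under 0.05. Deviations of same-numbered libraries correlated at -0.18, 0.16 and 0.15, and not every library correlated best with its own number. With so few libraries this check cannot exclude handling shared by number. The labels give a replicate number and name no pairs.

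Of 1925 results for 129 named genes under these alternatives, 1824 kept their direction and their side of the threshold, 41 gained a call, 36 lost one and 24 changed sign. Only the 5 called genes could lose a call, so all 36 lost calls are theirs. A gene without a call counted as kept when it stayed uncalled with the same sign. The 1824 is therefore no measure of how stable the calls were. The sign changes had these log2 fold changes: without IMQ + H2O replicate 3, 1.35 for S100a8, 1.30 for S100a9, 0.61 for Krt6a, 0.18 for Krt16, 0.50 for Krt17, 3.70 for Retnlg and 2.24 for Fpr2; with limma-voom, 0.30, 0.32, 0.0819, 1.55 and 0.15 for S100a8, S100a9, Krt17, Retnlg and Fpr2; with the replicate block, 0.45, 0.44, 0.0766 and 0.12 for S100a8, S100a9, Krt17 and Retnlg; without IMQ + XYF replicate 2, -0.0665 for Thy1, 0.0726 for Krt6a, 0.124 for Krt17 and -0.082 for Cd3e; without IMQ + H2O replicate 1, 0.0119 for Krt10 and -0.0783 for Cd3e; without IMQ + XYF replicate 1, -0.0343 for Cd3e; without IMQ + H2O replicate 2, 0.00724 for Cd207. At the other end of the range with a library left out stood -0.839 for S100a8, -0.764 for S100a9, -0.612 for Krt6a, -0.393 for Krt16, -0.330 for Krt17, -2.10 for Retnlg, -2.07 for Fpr2, -0.309 for Krt10, -0.226 for Cd207, 0.196 for Thy1 and 0.154 for Cd3e. Apart from replicates left out, the cause was not tested. Of 720 list medians, 13 moved by more than the median standard error. The planned legacy quasi-likelihood fit is the default of the installed version and equals the fit reported. Depth limited what could be said of genes under 1 CPM.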
